A study of Mus musculus with 21 samples.

Results

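The genes that encode the Polycomb complexes were followed in mouse embryonic stem cells (mESCs) that had lost the cohesin regulators PDS5A, PDS5B or both. The set held 35 genes, listed by name for their known place in Polycomb repressive complex 1 (PRC1), Polycomb repressive complex 2 (PRC2) or the Polycomb repressive deubiquitinase, out of 23412 genes in the count files. All 35 were present in the files and passed the filter on low counts, which left 14963 genes to test. RNA-seq was performed on 21 libraries of the male line v6.5, in 7 conditions of 3 libraries each. Wild-type (WT) cells received siGLO, a control siRNA for transfection, or an siRNA pool against Pds5b (WT siPds5b). Pds5a knockout cells (Pds5a-KO) received siGLO, siPds5b, siStag1 or siStag2, and Pds5b knockout cells (Pds5b-KO) received siGLO. All cells, controls included, were transfected at 50 nM and harvested at 48 hours. Each knockout was a single CRISPR-Cas9 clone, so that the edited gene and the clone cannot be told apart. The labels do not say what separates the 3 libraries of a condition. The study's supplement calls the WT, Pds5a-KO and Pds5b-KO libraries biological replicates, and for the other conditions the p-values measure a spread between libraries that may be technical.

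Polycomb complexes keep developmental genes silent, and in mESCs they hold lineage genes in a repressed but inducible state. PRC2 methylates histone H3 at lysine 27 through EZH1 or EZH2, which need EED and SUZ12 to work. PRC1 attaches ubiquitin to histone H2A through RING1 or RNF2 (RING1B), paired with 1 of the PCGF proteins; canonical PRC1 adds a CBX protein that reads the PRC2 mark and a PHC protein, and variant PRC1 adds RYBP or YAF2 instead. The deubiquitinase, made of BAP1 and an ASXL protein, removes the PRC1 mark. Cohesin holds DNA in loops, PDS5A and PDS5B govern its release, and STAG1 and STAG2 are alternative cohesin subunits.

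Promoters of this gene set were rich in CG dinucleotides, the feature that KDM2B, the DNA-binding subunit of a variant PRC1, recognizes when it is unmethylated. Of the 35 genes, 31 were matched to the RefSeq promoter table (GRCm38.p6, windows from 250 bases before to 50 bases after a start), with 44 promoters. Their median was 23.5 CG dinucleotides in the 300 bases, with a range of 0 to 54, and the median over all 32851 promoters was 7. That background was not limited to genes that passed the filter on low counts, as all 35 members did. The contrast is therefore not shown to be particular to this set. The promoters of 3 members are printed 5′ to 3′ on the gene's strand, with CG in capitals, up to the base before the start: Pcgf5, the member with the largest increase after dual depletion, Ring1, the member with the largest decrease there, and Kdm2b, the member with the largest increase in Pds5b-KO siGLO. For Pcgf5 and Kdm2b, which have 3 and 4 RefSeq promoters, the window with the most CG is shown, and both lie inside the annotated gene, at an alternative start. These are chr19:36409498-36409747 on the plus strand for Pcgf5 (35 CG in the full window), chr17:34024681-34024930 on the minus strand for Ring1 (37 CG) and chr5:122900351-122900600 on the minus strand for Kdm2b (49 CG). The CG count was above that of 93.0%, 94.4% and 99.0% of all promoters, respectively.
Pcgf5: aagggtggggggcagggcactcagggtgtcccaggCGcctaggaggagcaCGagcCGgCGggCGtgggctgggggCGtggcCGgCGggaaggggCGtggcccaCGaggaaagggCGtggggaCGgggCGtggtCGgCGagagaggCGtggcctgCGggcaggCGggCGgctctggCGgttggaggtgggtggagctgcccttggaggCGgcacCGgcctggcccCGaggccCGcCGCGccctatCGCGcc
Ring1: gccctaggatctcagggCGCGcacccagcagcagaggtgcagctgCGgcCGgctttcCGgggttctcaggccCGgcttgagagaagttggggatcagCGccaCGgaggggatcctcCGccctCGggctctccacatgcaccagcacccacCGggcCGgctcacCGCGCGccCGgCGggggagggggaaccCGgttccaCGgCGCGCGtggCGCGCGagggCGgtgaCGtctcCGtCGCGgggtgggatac
Kdm2b: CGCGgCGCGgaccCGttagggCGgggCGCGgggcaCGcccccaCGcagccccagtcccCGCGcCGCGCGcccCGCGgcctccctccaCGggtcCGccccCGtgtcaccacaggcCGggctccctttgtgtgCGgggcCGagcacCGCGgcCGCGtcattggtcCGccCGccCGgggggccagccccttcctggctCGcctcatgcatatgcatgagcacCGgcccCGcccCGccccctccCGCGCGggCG
A pair of motifs was counted on both strands because factors of the PCGF6-type PRC1 bind them: TTCCCGCC (the E2F type, reverse complement GGCGGGAA) and CACGTG (the E-box, its own reverse complement), neither of which contains the other. The E2F type stood in 3 of the 44 member promoters (of Asxl1, Pcgf5 and Scmh1) and in 2.19% of all promoters, and in the Pcgf5 run above it begins at base 83, as GGCGGGAA. The E-box stood in 8 of the 44 member promoters (of Bap1, Bmi1, Cbx6, Cbx8, Pcgf2, Phc2, Phc3 and Rbbp4) and in 7.15% of all promoters. Both motifs contain a CG, in which the member promoters were richer than all promoters. The part of CG content in these counts was not tested.

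The libraries held 17311090 to 23989198 counts (median 19628146). Normalized counts below are counts scaled by TMM, edgeR's correction for library composition, to the mean library size. The knocked-down or edited gene was lower where the label says so: Pds5b fell by 3.01 on the log2 scale in Pds5b-KO siGLO and by 1.52 and 1.30 after siPds5b in WT and Pds5a-KO cells, Stag1 fell by 2.10 after siStag1 and Stag2 by 1.95 after siStag2, all against WT siGLO. Pds5a had a log2 difference of -0.24 (edgeR adjusted p = 0.0415) in Pds5a-KO siGLO, which missed the threshold of 0.01, so the transcript count does not check that label. The 8 mESC markers (Pou5f1, Sox2 and Nanog among them) were all detected, with summed normalized counts of 76060 to 79080 in WT siGLO, 56980 to 65930 in Pds5a-KO siGLO, 60700 to 64180 in Pds5b-KO siGLO and 40030 to 43990 in Pds5a-KO siPds5b. Pds5a-KO siStag1 held 55190 to 57300 and Pds5a-KO siStag2 44910 to 47660. Of the 8, 4 were lower in each single knockout (1 was higher in Pds5b-KO siGLO), 4 after siStag1, and 6 after siPds5b or siStag2 in Pds5a-KO cells. None of the neural progenitor (5), primitive endoderm (5) or fibroblast (7) markers was at 0 in all libraries, and in Pds5a-KO siPds5b their sums were 1041 to 1240 (WT siGLO, 1976 to 2699), 829.2 to 1461 (742.3 to 1247) and 529.2 to 1503 (1169 to 1617). In Pds5a-KO siPds5b 2 neural markers and 1 fibroblast marker were lower, and in Pds5a-KO siGLO 2 neural markers were lower, with sums of 1134 to 1508. In Pds5b-KO siGLO 3 neural markers were higher, with sums of 2403 to 2565, and 2 fibroblast markers lower, with sums of 417 to 542.6. With siStag1 in Pds5a-KO cells 2 fibroblast markers were lower (sums of 343 to 1033) and with siStag2 1 (694.9 to 1016), and in each 1 neural marker was higher and 1 lower (1448 to 2119 and 1620 to 1884). No endoderm marker passed the test in any condition against WT siGLO. The part of these marker levels in the results below was not tested, and in bulk RNA fewer cells of a type and less RNA per cell cannot be told apart.

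In WT siGLO the 35 genes spanned a wide range of level, given here as TMM-normalized CPM per kb of exon so that genes can be compared. Their median was 11.9, and that of 14825 tested genes with a known length was 4.46. Rbbp7, a histone-binding subunit of PRC2 and of other chromatin complexes, was at the top with 166 ± 10 (SD, n = 3), and its libraries did not overlap those of the next gene. Mtf2, which brings PRC2 to CG-rich DNA, and Phc1, the main PHC subunit, followed at 76.4 ± 8.8 and 76.1 ± 3.39 and did not differ beyond their spread. Of the PRC2 core, Eed was at 58.9 ± 3.88, Rbbp4 at 55.7 ± 1.91, Suz12 at 49.7 ± 2.24, Ezh2 at 33.6 ± 0.513 and Ezh1 at 5.61 ± 0.141. Eed and Rbbp4 overlapped. Rnf2, at 42.1 ± 3.86, stood between Suz12 and Jarid2 (35.4 ± 4.41), while its paralog Ring1 was at 3.37 ± 0.621. Of the CBX genes Cbx7 was at 25.7 ± 0.688 and Cbx8 at 0.3 ± 0.0977, the lowest of the set. In all, 18 members reached 10 and 2, Phc3 and Cbx8, were under 1.

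**Figure D1:**
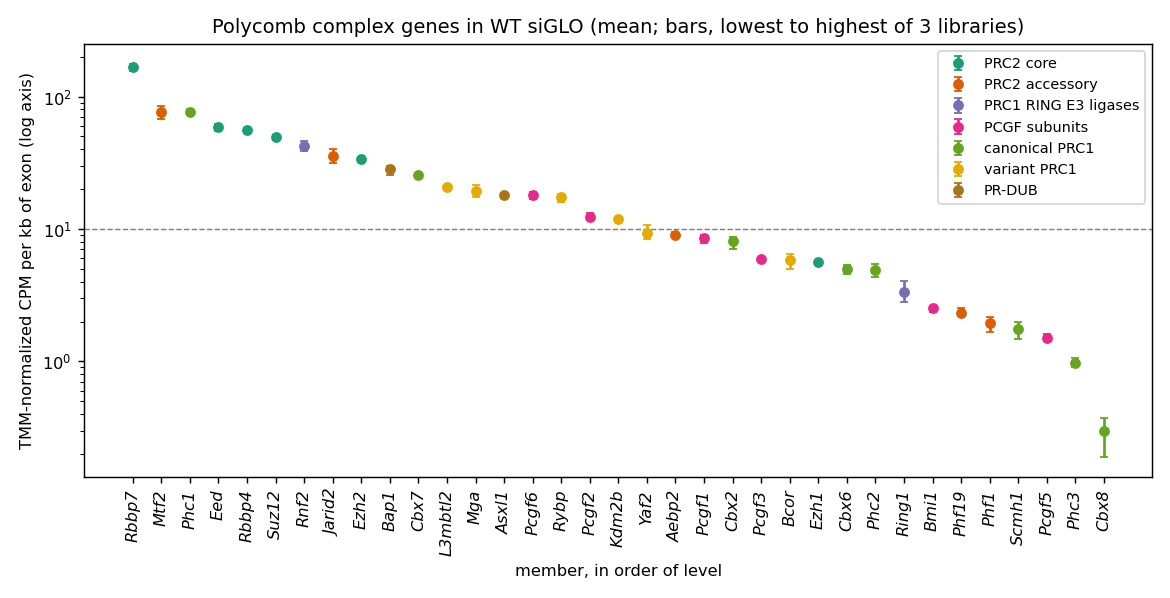
Level of each member in WT siGLO, as TMM-normalized CPM per kb of exon on a log axis, ordered from high to low and coloured by role. Points are means and bars run from the lowest to the highest of 3 libraries; the dashed line is at 10, which 18 members reached, from Rbbp7 at 166 down.

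Against WT siGLO, 6 of the 35 genes were called in Pds5a-KO siGLO (5 higher and 1 lower, 17.1%), where 17.8% of all 14963 tested genes were called, and 6 in Pds5b-KO siGLO (all higher), where the background was 18.2%. A gene was called when the edgeR quasi-likelihood test gave an adjusted p under 0.01, and log2 differences are given ± SE with 3 libraries in each condition. Dual depletion, that is siPds5b in Pds5a-KO cells, called 17 members (12 higher and 5 lower, 48.6%), and 32.0% of all genes. At an unadjusted p under 0.05 (edgeR) the share was 57.1% of the members and 51.6% of all genes. The median absolute log2 difference of the 35 genes after dual depletion was 0.28, and that of all genes was 0.30. Their median level in WT siGLO was 11.9 per kb, against 4.46 for tested genes with a known length. The part of this level in the share called was not tested. With 1 library left out dual depletion called 10 to 15 members, the fewest without WT siGLO replicate 3 (10) and Pds5a-KO siPds5b replicate 3 (11). With siStag1 in Pds5a-KO cells 8 were called (6 higher and 2 lower) against a background of 20.0%, and with siStag2 10 (8 higher and 2 lower) against 30.1%. The siStag1 count was 2 without Pds5a-KO siStag1 replicate 2, 4 without its replicate 3, 5 and 4 without WT siGLO replicates 2 and 3, 13 with DESeq2 and 14 with replicate number blocked. The Pds5b-KO siGLO count was 9 with DESeq2 and 10 with the block. Over all genes the siStag1 count was 2991, with 3399 under DESeq2, 3518 with the block and 2128 to 2509 with 1 library left out. That of Pds5b-KO siGLO was 2725, with 3221 under DESeq2 and 3316 with the block. Dual depletion called 4787 of all genes, and 3836 to 4505 with 1 library left out. Cbx7 and Phc1 were higher in all 5 knockout conditions, and Pcgf5, Phf19, Pcgf3 and Asxl1 in 4 of the 5, but these conditions share the WT siGLO libraries, and 4 of them the Pds5a-KO clone. The 12 members called in no comparison by this edgeR model were Ezh2, Phf1, Jarid2, Pcgf1, Pcgf6, Phc2, Phc3, Scmh1, Rybp, Yaf2, L3mbtl2 and Mga, of which alternatives called Jarid2, L3mbtl2, Rybp and Mga.

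**Figure D2:**
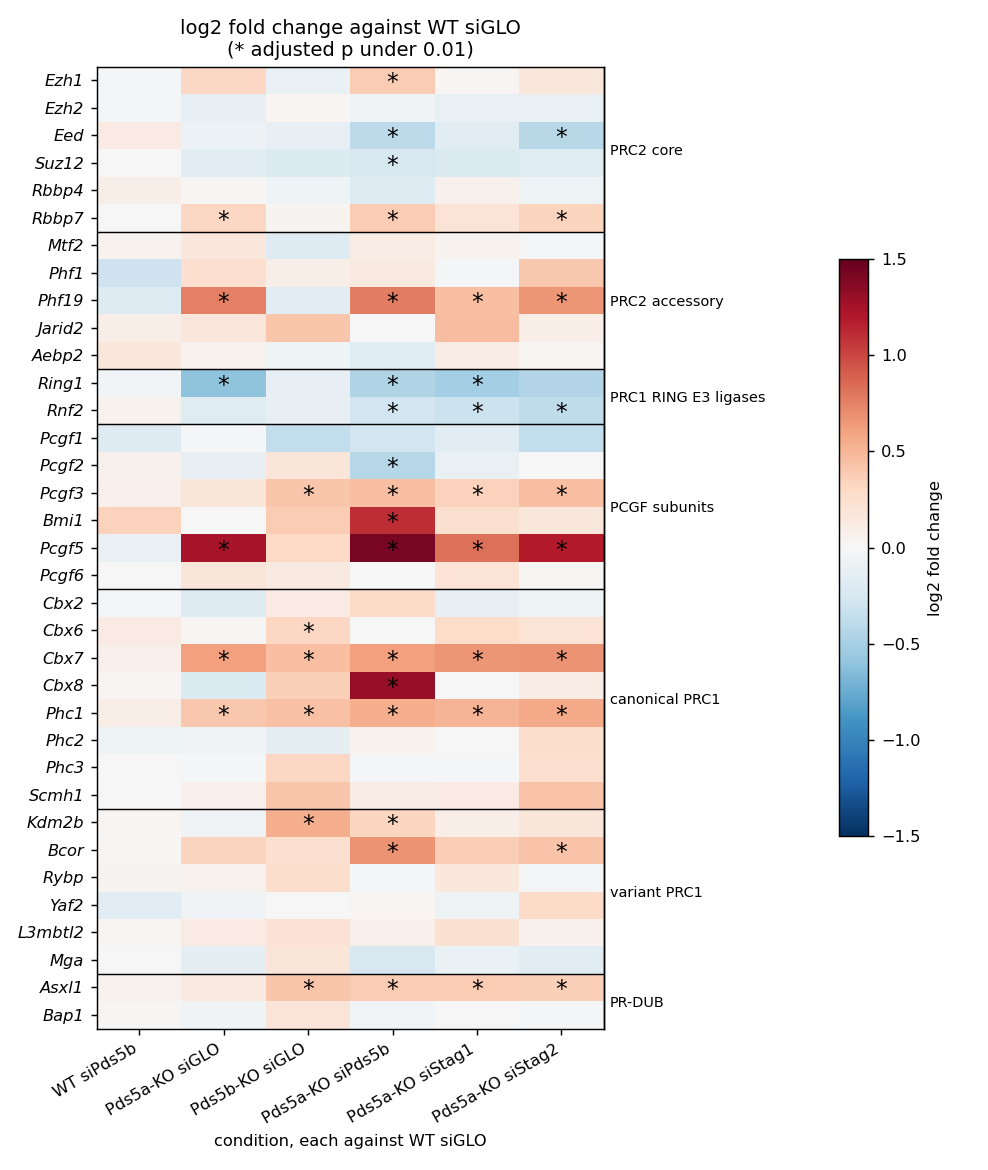
Log2 fold change of each member (rows, grouped by role) in each of 6 conditions against WT siGLO (columns), from blue (lower) to red (higher), with the colour scale ending at 1.5 either way. Asterisks mark an adjusted p under 0.01: none in WT siPds5b and 17 in Pds5a-KO siPds5b, with Cbx7 and Phc1 marked in all 5 knockout conditions.

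Knockdown of Pds5b in WT cells called none of the members with edgeR, and DESeq2 likewise called none. Across all genes 0.00668% were called. At an unadjusted p under 0.05 there were 2 members (5.71%, and 4.22% of all genes), Bmi1 at a log2 difference of 0.35 and Aebp2 at 0.16. The median log2 difference of the 35 genes was 0.02, and their median absolute difference was 0.05 (all genes, 0.09).

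Among the PRC2 core genes, Ezh2, the main H3K27 methyltransferase of mESCs, was the steadiest member. It had normalized counts of 4510, 4375 and 4460 in WT siGLO, 4254, 3959 and 4049 in Pds5a-KO siGLO, 4698, 4680 and 4259 in Pds5b-KO siGLO and 4196, 4171 and 4483 in Pds5a-KO siPds5b. Its highest condition mean was 1.112 times its lowest, and its edgeR adjusted p after dual depletion was 0.489, with a log2 difference of -0.05 ± 0.06 (SE). Ezh1, its less active paralog, had 828, 847 and 805 in WT siGLO and 999.8, 1037 and 1189 in Pds5a-KO siPds5b, with every dual-depletion library above every WT siGLO library (log2 0.38 ± 0.10, edgeR adjusted p = 0.00232). In Pds5a-KO siGLO its libraries were also all above WT siGLO (log2 0.31 ± 0.10, edgeR adjusted p = 0.0169, and 0.00809 with the block). Within that clone siPds5b differed from siGLO by 0.07 ± 0.09 for Ezh1 (edgeR adjusted p = 0.674). Eed, the subunit that reads H3K27 methylation, had 4597, 4134 and 4681 in WT siGLO, 4666, 4099 and 3868 in Pds5a-KO siGLO, 3797, 3440 and 2999 in Pds5a-KO siPds5b and 3344, 3687 and 3040 in Pds5a-KO siStag2. Its libraries after siPds5b or siStag2 lay below all WT siGLO libraries, and it fell by 0.39 ± 0.10 (log2, edgeR adjusted p = 0.00268) and by 0.41 ± 0.10 (0.00179). Suz12, the scaffold of the complex, had 4996, 4614 and 4991 in WT siGLO and 4177, 4016 and 4130 in Pds5a-KO siPds5b, again without overlap, with a fall on the log2 scale of 0.24 ± 0.06 (edgeR adjusted p = 0.00293). Its libraries were also all below WT siGLO in Pds5a-KO siGLO (log2 -0.16) and Pds5b-KO siGLO (-0.21). The same held with siStag1 (-0.22) and siStag2 (-0.18) in Pds5a-KO cells, and this model called none of these. DESeq2 called siStag1 (adjusted p = 0.00412), and edgeR with the block called siStag1 (0.00629) and Pds5b-KO siGLO (0.00903). Within the Pds5a-KO clone siPds5b differed from siGLO by -0.09 ± 0.06 for Suz12 (edgeR adjusted p = 0.373). Rbbp7 went the other way, from 9043, 9546 and 10190 in WT siGLO to 11000, 12280 and 12280 in Pds5a-KO siGLO, 12050, 13050 and 12450 in Pds5a-KO siPds5b and 12030, 12670 and 11670 in Pds5a-KO siStag2. All of those knockout libraries were above the WT siGLO libraries, with log2 changes of 0.31 ± 0.06 (edgeR adjusted p = 0.000814), of 0.38 ± 0.06 (edgeR adjusted p = 3.25e-05), and of 0.34 ± 0.06 (edgeR adjusted p = 0.000165). The Rbbp7 call in Pds5a-KO siGLO was lost with only the compared conditions in the model (edgeR adjusted p = 0.0107).

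The 4 core genes Ezh2, Eed, Suz12 and Rbbp4 thus had negative differences after dual depletion, 2 of which passed the test, while Rbbp7 and Ezh1 rose. With libraries left out 1 at a time, after dual depletion the call of Eed was lost without WT siGLO replicates 1 or 3, or Pds5a-KO siPds5b replicate 3 (edgeR adjusted p = 0.0123 to 0.0245), that of Suz12 without WT siGLO replicates 1 or 3, or Pds5a-KO siPds5b replicate 2 (edgeR adjusted p = 0.0162 to 0.0169), and that of Ezh1 without WT siGLO replicate 3, or Pds5a-KO siPds5b replicate 3 (edgeR adjusted p = 0.0134 to 0.0242). In Pds5a-KO siStag2 the call of Eed was lost without WT siGLO replicate 3, or Pds5a-KO siStag2 replicate 3 (edgeR adjusted p = 0.0107 to 0.0152). Eed shares 261 bases of exon with E230029C05Rik and Rbbp7 174 with Txlng, and since strand use in counting was not given, reads there cannot be told apart.

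Among the PRC2 accessory genes, Phf19, a Polycomb-like protein that binds methylated H3K36 and CG-rich DNA, had the largest change. Its normalized counts were 225, 251 and 221 in WT siGLO, 429.7, 345 and 404 in Pds5a-KO siGLO, 419, 371 and 392 in Pds5a-KO siPds5b, 298, 337 and 320.5 in Pds5a-KO siStag1 and 361, 354 and 385 in Pds5a-KO siStag2. Every library of the Pds5a-KO clone was above every WT siGLO library, while Pds5b-KO siGLO, with 208, 248 and 169.9, overlapped WT siGLO. The log2 changes against WT siGLO were 0.76 ± 0.12 (edgeR adjusted p = 5.27e-05) in Pds5a-KO siGLO, 0.76 ± 0.12 (edgeR adjusted p = 2.09e-05) with siPds5b, 0.46 ± 0.12 (edgeR adjusted p = 0.00635) with siStag1 and 0.66 ± 0.12 (edgeR adjusted p = 0.000141) with siStag2. Only the siStag1 call depended on a single library, being lost without WT siGLO replicates 1 or 3, or Pds5a-KO siStag1 replicates 2 or 3 (edgeR adjusted p = 0.0264 to 0.0345). Mtf2, the most abundant Polycomb-like gene, Phf1, Jarid2, a DNA-binding subunit, and Aebp2, which strengthens PRC2 binding, were not called against WT siGLO with this model. The Jarid2 libraries were above WT siGLO (7732, 6055 and 6668) without overlap in Pds5b-KO siGLO (10570, 8604 and 8040) and Pds5a-KO siStag1 (10350, 9503 and 8291), and DESeq2 called both (adjusted p = 0.00748 and 0.00323), as did edgeR with replicate number blocked (8.81e-05 and 1.45e-05). Jarid2 ranged from a mean of 6793 in Pds5a-KO siPds5b to 9381 in Pds5a-KO siStag1.

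The RING genes carry the ubiquitin ligase activity of PRC1, and neither was called higher in any comparison. Ring1 had normalized counts of 182, 260.2 and 207 in WT siGLO, 125, 142 and 158 in Pds5a-KO siGLO, 150.1, 163 and 162 in Pds5a-KO siPds5b, 149, 159 and 148 in Pds5a-KO siStag1 and 156, 171 and 151 in Pds5a-KO siStag2. All 12 libraries of the Pds5a-KO clone were below all 3 WT siGLO libraries, and Pds5b-KO siGLO, with 183, 196 and 216, overlapped them. The log2 differences in the same order were -0.60 ± 0.14 (edgeR adjusted p = 0.00171), then -0.45 ± 0.14 (edgeR adjusted p = 0.00932), then -0.51 ± 0.14 (edgeR adjusted p = 0.00613), and -0.44 ± 0.14 (edgeR adjusted p = 0.0121), the last of which missed the threshold. Rnf2, the more abundant ligase, had 3793, 3180 and 3356 in WT siGLO, 2866, 2925 and 2705 in Pds5a-KO siPds5b, 2853, 2739 and 2702 in Pds5a-KO siStag1 and 2472, 2670 and 2811 in Pds5a-KO siStag2, with all 3 sets below WT siGLO. Its log2 differences were -0.28 ± 0.07 (edgeR adjusted p = 0.0033), -0.32 ± 0.07 (edgeR adjusted p = 0.00202) and -0.38 ± 0.07 (edgeR adjusted p = 0.000264). In Pds5a-KO siGLO alone it had -0.18 ± 0.07 and an edgeR adjusted p of 0.0654. The Ring1 call was lost in Pds5a-KO siGLO without WT siGLO replicate 2, or Pds5a-KO siGLO replicate 1 (edgeR adjusted p = 0.0102 to 0.0173), after siPds5b without WT siGLO replicates 2 or 3, or Pds5a-KO siPds5b replicates 1, 2 or 3 (edgeR adjusted p = 0.0151 to 0.0804) and after siStag1 without WT siGLO replicates 2 or 3, or Pds5a-KO siStag1 replicates 1, 2 or 3 (edgeR adjusted p = 0.0119 to 0.057). With only the compared conditions in the model these Ring1 calls were also lost (edgeR adjusted p = 0.0197, 0.0383 and 0.0213). Without the filter on low counts the Ring1 call after siPds5b was lost too (edgeR adjusted p = 0.0122). The Rnf2 call was lost after siPds5b without WT siGLO replicate 1, or Pds5a-KO siPds5b replicate 3 (edgeR adjusted p = 0.0197 to 0.0369) and after siStag1 without WT siGLO replicate 1, or Pds5a-KO siStag1 replicate 2 (edgeR adjusted p = 0.011 to 0.0254).

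The PCGF genes, whose products set the type of PRC1, held the largest single change of the set against WT siGLO, that of Pcgf5 after dual depletion. Pcgf5, the subunit of a variant PRC1, had normalized counts of 357, 404 and 366 in WT siGLO and 398, 547 and 444 in Pds5b-KO siGLO. In the Pds5a-KO clone it had 587, 994 and 1080 with siGLO, 754, 1048 and 1231 with siPds5b, 557, 636 and 796 with siStag1 and 722, 855 and 999 with siStag2. All 12 Pds5a-KO libraries were above the WT siGLO libraries, and replicate 1 was the lowest of each set. The log2 changes against WT siGLO were 1.24 ± 0.22 (edgeR adjusted p = 0.000334) with siGLO, 1.43 ± 0.22 (edgeR adjusted p = 4.02e-05) with siPds5b, 0.82 ± 0.22 (edgeR adjusted p = 0.00763) with siStag1 and 1.19 ± 0.22 (edgeR adjusted p = 0.000274) with siStag2. The siStag1 call was lost without WT siGLO replicates 1, 2 or 3, or Pds5a-KO siStag1 replicates 2 or 3 (edgeR adjusted p = 0.0163 to 0.0475).

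Bmi1 (Pcgf4), a subunit of canonical PRC1, rose after dual depletion. It had 202, 207 and 188 normalized counts in WT siGLO, 249, 226 and 286 in WT siPds5b, 226, 161 and 206 in Pds5a-KO siGLO and 445, 435 and 402 in Pds5a-KO siPds5b. With siStag1 or siStag2 in the same clone it had 267, 233 and 202 and 215, 233 and 225. The 3 dual-depletion libraries were above all other 18 libraries (log2 1.10 ± 0.13, edgeR adjusted p = 2.41e-07 against WT siGLO). Pcgf2 (Mel18), which takes the same place as BMI1 in canonical PRC1, moved the opposite way, from 817, 923 and 867 in WT siGLO to 627, 635 and 675 in Pds5a-KO siPds5b, below every other library of the series, with a log2 difference of -0.43 ± 0.09 (edgeR adjusted p = 0.000267). Pcgf3, of a variant PRC1, had 1150, 1065 and 1120 in WT siGLO, 1562, 1447 and 1433 in Pds5b-KO siGLO and 1465, 1518 and 1592 in Pds5a-KO siPds5b, all above WT siGLO, with log2 changes of 0.41 ± 0.09 (edgeR adjusted p = 0.000795) and 0.46 ± 0.09 (edgeR adjusted p = 0.000139). It was also higher with siStag1 (0.35 ± 0.09) and siStag2 (0.46 ± 0.09) in Pds5a-KO cells, and the siStag1 call was lost without WT siGLO replicates 2 or 3, or Pds5a-KO siStag1 replicates 2 or 3 (edgeR adjusted p = 0.0119 to 0.0236). Pcgf1 and Pcgf6 were not called.

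**Figure D3:**
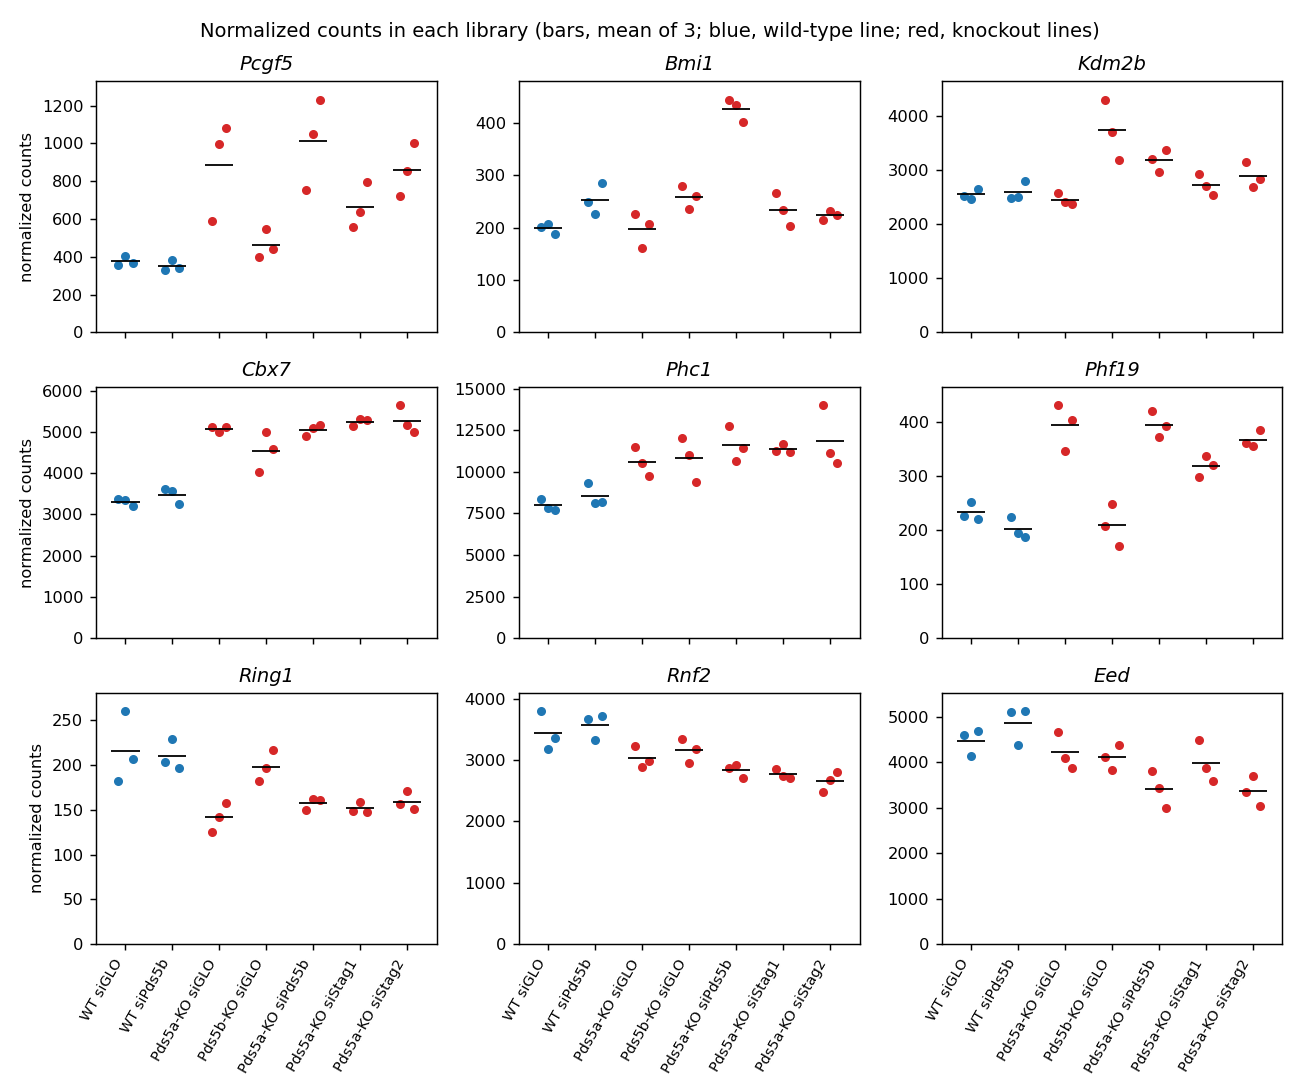
Normalized counts of 9 members in each of the 21 libraries, by condition, with points for libraries and a bar for the mean of 3; every axis starts at 0. Bmi1 after dual depletion (402 to 445) was above all other libraries, and all 12 libraries of the Pds5a-KO clone were above WT siGLO for Pcgf5, Cbx7 and Phf19 and below it for Ring1.

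Of the canonical PRC1 genes, Cbx7, the main CBX reader in mESCs, had 3372, 3344 and 3207 normalized counts in WT siGLO, 5112, 5002 and 5118 in Pds5a-KO siGLO, 4027, 4989 and 4589 in Pds5b-KO siGLO and 4908, 5091 and 5160 in Pds5a-KO siPds5b. With siStag1 and siStag2 it had 5131, 5304 and 5283 and 5639, 5171 and 5001. No knockout library overlapped WT siGLO, and the log2 changes were 0.62 ± 0.07 (edgeR adjusted p = 5.14e-07) in Pds5a-KO siGLO, 0.46 ± 0.07 (edgeR adjusted p = 2.86e-05) in Pds5b-KO siGLO and 0.61 ± 0.07 (edgeR adjusted p = 1.78e-07) in Pds5a-KO siPds5b. With siStag1 and siStag2 the changes were 0.66 ± 0.07 and 0.67 ± 0.07. Phc1, which lets PRC1 polymerize, had 8395, 7842 and 7732 in WT siGLO, 11500, 10560 and 9729 in Pds5a-KO siGLO, 12050, 11010 and 9385 in Pds5b-KO siGLO and 12730, 10670 and 11460 in Pds5a-KO siPds5b, with no overlap with WT siGLO. Its log2 changes were 0.41 ± 0.10 (edgeR adjusted p = 0.00321), 0.44 ± 0.10 (edgeR adjusted p = 0.00184) and 0.54 ± 0.10 (edgeR adjusted p = 0.000113), and 0.51 ± 0.10 and 0.57 ± 0.10 with siStag1 and siStag2. The call of Phc1 was lost in Pds5a-KO siGLO without WT siGLO replicates 2 or 3, or Pds5a-KO siGLO replicates 1 or 2 (edgeR adjusted p = 0.014 to 0.0238) and in Pds5b-KO siGLO without WT siGLO replicates 2 or 3, or Pds5b-KO siGLO replicates 1 or 2 (edgeR adjusted p = 0.0101 to 0.0169). Cbx7 shares 100 of its 6487 exon bases with Apobec3.

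Cbx8, a reader with very low counts in mESCs (11 to 75 reads a library), had 13.8, 27 and 24.8 normalized counts in WT siGLO and 38.2, 48.7 and 74.8 in Pds5a-KO siPds5b, without overlap (log2 1.31 ± 0.39, edgeR adjusted p = 0.0082), and the call was lost without WT siGLO replicates 1, 2 or 3, or Pds5a-KO siPds5b replicates 2 or 3 (edgeR adjusted p = 0.0123 to 0.0655). Cbx6 was higher in Pds5b-KO siGLO, at 1193, 1401 and 1326 against 952, 1097 and 1116 in WT siGLO (log2 0.31 ± 0.08, edgeR adjusted p = 0.00637), and that call was lost without WT siGLO replicates 1 or 2, or Pds5b-KO siGLO replicates 2 or 3 (edgeR adjusted p = 0.0105 to 0.0493). Cbx6 shares 563 exon bases with Npcd. Cbx2, Phc2, Phc3 and Scmh1 were not called against WT siGLO with this model, and DESeq2 called Cbx2 after dual depletion (log2 0.29, adjusted p = 0.00933).

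Of the variant PRC1 genes, Kdm2b had the largest change in Pds5b-KO siGLO. It had 2532, 2467 and 2661 normalized counts in WT siGLO, 2572, 2409 and 2385 in Pds5a-KO siGLO, 4307, 3711 and 3192 in Pds5b-KO siGLO and 3208, 2974 and 3383 in Pds5a-KO siPds5b. Pds5b-KO siGLO and Pds5a-KO siPds5b were above WT siGLO without overlap (log2 0.55 ± 0.09, edgeR adjusted p = 5.37e-05, and 0.32 ± 0.09, edgeR adjusted p = 0.00499), while Pds5a-KO siGLO and WT siPds5b overlapped it. The dual-depletion call was lost without WT siGLO replicates 1, 2 or 3, or Pds5a-KO siPds5b replicates 1 or 3 (edgeR adjusted p = 0.0106 to 0.0337). Bcor, its partner in the PCGF1-type PRC1, had 856, 1111 and 1035 in WT siGLO, 1399, 1644 and 1725 in Pds5a-KO siPds5b and 1387, 1348 and 1293 in Pds5a-KO siStag2, the latter sets above WT siGLO (log2 0.67 ± 0.12, edgeR adjusted p = 7.06e-05, and 0.43 ± 0.12, edgeR adjusted p = 0.00536), and the siStag2 call was lost without WT siGLO replicates 1 or 3, or Pds5a-KO siStag2 replicates 1, 2 or 3 (edgeR adjusted p = 0.01 to 0.043). Kdm2b shares 627 exon bases with Rnf34.

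Of the deubiquitinase genes, Asxl1 had 2777, 2612 and 2650 normalized counts in WT siGLO, 4158, 3549 and 2995 in Pds5b-KO siGLO, 3618, 3288 and 3537 in Pds5a-KO siPds5b, 3540, 3677 and 3241 in Pds5a-KO siStag1 and 3847, 3118 and 3318 in Pds5a-KO siStag2, all above WT siGLO. Its log2 changes were 0.41 ± 0.09, 0.38 ± 0.09, 0.38 ± 0.09 and 0.36 ± 0.09, with edgeR adjusted p of 0.00151, 0.00172, 0.00265 and 0.00309. These calls were lost without Pds5b-KO siGLO replicate 1 (edgeR adjusted p = 0.0181), without WT siGLO replicates 2 or 3, or Pds5a-KO siPds5b replicate 1 (edgeR adjusted p = 0.0103 to 0.0119), without WT siGLO replicates 2 or 3, or Pds5a-KO siStag1 replicates 1 or 2 (edgeR adjusted p = 0.0121 to 0.021) and without WT siGLO replicates 2 or 3, or Pds5a-KO siStag2 replicate 1 (edgeR adjusted p = 0.0164 to 0.0347), respectively. Bap1, the catalytic subunit, was not called against WT siGLO with edgeR, and DESeq2 called it in Pds5b-KO siGLO (log2 0.20, adjusted p = 0.00338).

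Among the 12 members that the edgeR model called in no comparison, the ratio of the highest to the lowest condition mean was 1.112 for Ezh2 and 1.638 for Phf1, the ends of the range. Phf1, a Polycomb-like gene of low level, had means from 107.6 in WT siPds5b to 176.3 in Pds5a-KO siStag2 and shares 1370 of its 3486 exon bases with Cuta. Pcgf6, which with L3mbtl2 and Mga forms the PRC1 of germline gene silencing, had means from 1805 in WT siGLO to 2088 in Pds5a-KO siStag1. L3mbtl2 ranged from 2431 in WT siGLO to 2855 in Pds5a-KO siStag1, and Mga from 4969 in Pds5a-KO siPds5b to 6624 in Pds5b-KO siGLO. DESeq2 called L3mbtl2 in Pds5b-KO siGLO and Pds5a-KO siStag1 against WT siGLO (adjusted p = 0.00791 and 0.0069), and edgeR with the block called Mga between the single knockouts (0.00151). Rybp, which stimulates variant PRC1, ranged from 1601 in Pds5a-KO siPds5b to 1973 in Pds5b-KO siGLO, and its paralog Yaf2 from 306.3 in WT siPds5b to 422.2 in Pds5a-KO siStag2. With the block edgeR called Rybp in Pds5b-KO siGLO (adjusted p = 0.00868).

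Within the Pds5a-KO clone, which removes the clone from the comparison, siPds5b called 3 members against siGLO, all higher (8.57%), and 7.59% of all genes. Bmi1 rose most (log2 1.11 ± 0.13, edgeR adjusted p = 1.86e-06). Cbx2, a canonical reader that compacts chromatin, rose from 563, 584 and 644 with siGLO to 828, 783 and 886 with siPds5b, without overlap (log2 0.48 ± 0.09, edgeR adjusted p = 0.000855). Kdm2b rose by 0.38 ± 0.09 (edgeR adjusted p = 0.00475), a call lost without Pds5a-KO siGLO replicates 2 or 3, or Pds5a-KO siPds5b replicates 1 or 3 (edgeR adjusted p = 0.0145 to 0.0306). Cbx8 had a log2 difference of 1.52 ± 0.40 (edgeR adjusted p = 0.0104), which became 0.000647, past the threshold, once replicate number was blocked. Cbx2 and Cbx8 lie 5034 bases apart on chromosome 11 (GRCm38). A test of whether siPds5b acted differently in Pds5a-KO and WT cells called no member with edgeR (background, 1.48%), 8 at an unadjusted p under 0.05 (22.9%, and 17.3% of all genes) and 3 with DESeq2 (Aebp2, Bmi1 and Cbx2). With replicate number blocked edgeR called 2, Aebp2 (adjusted p = 0.00716) and Bmi1 (0.00872). Of all genes the interaction called 222 with edgeR, 421 with DESeq2 and 389 with the block. The interaction of Bmi1 was 0.76 ± 0.18 (edgeR adjusted p = 0.017), and that of Aebp2 was -0.39 ± 0.09 (edgeR adjusted p = 0.0145).

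The STAG knockdowns called no member against siGLO in the same clone. With siStag1 0.0936% of all genes were called, with 5 members at an unadjusted p under 0.05 (14.3%, and 10.7% of all genes), and with siStag2 2.24% of all genes and 12 members (34.3%, and 25.3%). DESeq2 called none in either. The lowest edgeR adjusted p was that of Eed with siStag2, at 0.0431, for a log2 difference of -0.33 ± 0.10. The difference between siStag2 and siStag1 was also called for no member with edgeR or DESeq2, with 0.394% of all genes called and 8 members at an unadjusted p under 0.05 (22.9%, and 19.9% of all genes), while the block called Jarid2 (edgeR adjusted p = 0.00301).

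Set directly against siPds5b in the Pds5a-KO clone, siStag2 called 2 members (5.71%, background 3.96%) and siStag1 4 (11.4%, background 7.36%). Bmi1 was lower in both, with log2 differences of -0.93 ± 0.13 (edgeR adjusted p = 4.28e-05) with siStag2 and -0.87 ± 0.13 (edgeR adjusted p = 5.51e-05) with siStag1. Pcgf2 was higher with siStag2, at 926, 842 and 832 normalized counts against 627, 635 and 675 with siPds5b (log2 0.42 ± 0.09, edgeR adjusted p = 0.00251), a call lost without Pds5a-KO siPds5b replicates 1 or 2, or Pds5a-KO siStag2 replicate 1 (edgeR adjusted p = 0.0152 to 0.0188). With siStag1, Cbx2 was lower (log2 -0.40 ± 0.09, edgeR adjusted p = 0.00458), and Aebp2 and Rbbp4, a histone chaperone of PRC2, were higher (log2 0.28 ± 0.07, edgeR adjusted p = 0.00429, and 0.26 ± 0.06, edgeR adjusted p = 0.0063). Aebp2 had 1816, 1907 and 1977 with siStag1 and 1496, 1592 and 1592 with siPds5b, and Rbbp4 had 10700, 9715 and 9812 and 8843, 8236 and 8192, neither with overlap. The call of Cbx2 was lost without Pds5a-KO siPds5b replicates 1 or 3, or Pds5a-KO siStag1 replicates 1, 2 or 3 (edgeR adjusted p = 0.0108 to 0.0289), that of Aebp2 without Pds5a-KO siPds5b replicates 1, 2 or 3, or Pds5a-KO siStag1 replicates 2 or 3 (edgeR adjusted p = 0.0105 to 0.0273) and that of Rbbp4 without Pds5a-KO siPds5b replicates 2 or 3, or Pds5a-KO siStag1 replicates 1, 2 or 3 (edgeR adjusted p = 0.0111 to 0.0462). Blocking on replicate number brought the siStag1 comparison to 8 members, adding Ezh1, Jarid2, Pcgf5 and Cbx8 at edgeR adjusted p of 0.00516, 4.73e-05, 0.00176 and 0.00229. The block took the count over all genes from 1102 to 1538.

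Between the single knockouts, Pds5a-KO siGLO and Pds5b-KO siGLO, 11 members were called, 5 higher and 6 lower in Pds5a-KO siGLO (31.4%, background 19.2%). Phf19 (0.91 ± 0.12, edgeR adjusted p = 5.5e-06) and Pcgf5 (0.94 ± 0.21, edgeR adjusted p = 0.00295) were higher in Pds5a-KO siGLO, as were Ezh1 (0.41 ± 0.10, edgeR adjusted p = 0.00213), Mtf2 (0.35 ± 0.08, edgeR adjusted p = 0.00237) and Rbbp7 (0.26 ± 0.06). Kdm2b was lower (-0.61 ± 0.09, edgeR adjusted p = 1.55e-05), and so were Ring1 (-0.49 ± 0.14, edgeR adjusted p = 0.00903), Cbx2 (-0.33 ± 0.09, edgeR adjusted p = 0.00975), Pcgf2 (-0.31 ± 0.08, edgeR adjusted p = 0.00712), Cbx6 (-0.29 ± 0.08) and Bap1 (-0.24 ± 0.06). Of these, Mtf2 had 10420, 8820 and 9605 normalized counts in Pds5a-KO siGLO and 8162, 6979 and 7467 in Pds5b-KO siGLO, without overlap. The Phf19 and Kdm2b calls held under every alternative, and the other 9 did not. With only the 6 libraries of these conditions in the model, 2 members were called, and the count over all genes went from 2873 to 1810. Leaving out 1 library lost the calls of Pcgf5 without Pds5a-KO siGLO replicates 2 or 3, or Pds5b-KO siGLO replicates 1 or 3 (edgeR adjusted p = 0.0148 to 0.022), Ring1 without Pds5a-KO siGLO replicates 1 or 2, or Pds5b-KO siGLO replicates 2 or 3 (edgeR adjusted p = 0.0201 to 0.0362), Ezh1 without Pds5a-KO siGLO replicate 3, or Pds5b-KO siGLO replicates 1 or 3 (edgeR adjusted p = 0.0128 to 0.0282) and Mtf2 without Pds5a-KO siGLO replicates 1 or 3, or Pds5b-KO siGLO replicates 2 or 3 (edgeR adjusted p = 0.0122 to 0.0276). It lost those of Cbx2 without Pds5a-KO siGLO replicates 1 or 2, or Pds5b-KO siGLO replicates 1 or 2 (edgeR adjusted p = 0.0112 to 0.0647), Pcgf2 without Pds5a-KO siGLO replicates 1 or 2, or Pds5b-KO siGLO replicates 1 or 2 (edgeR adjusted p = 0.0215 to 0.0413), Cbx6 without Pds5a-KO siGLO replicates 1 or 2, or Pds5b-KO siGLO replicates 2 or 3 (edgeR adjusted p = 0.0166 to 0.0526), Rbbp7 without Pds5a-KO siGLO replicates 2 or 3, or Pds5b-KO siGLO replicates 1 or 2 (edgeR adjusted p = 0.0154 to 0.0289) and Bap1 without Pds5a-KO siGLO replicate 2 (edgeR adjusted p = 0.0112).

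**Figure D4:**
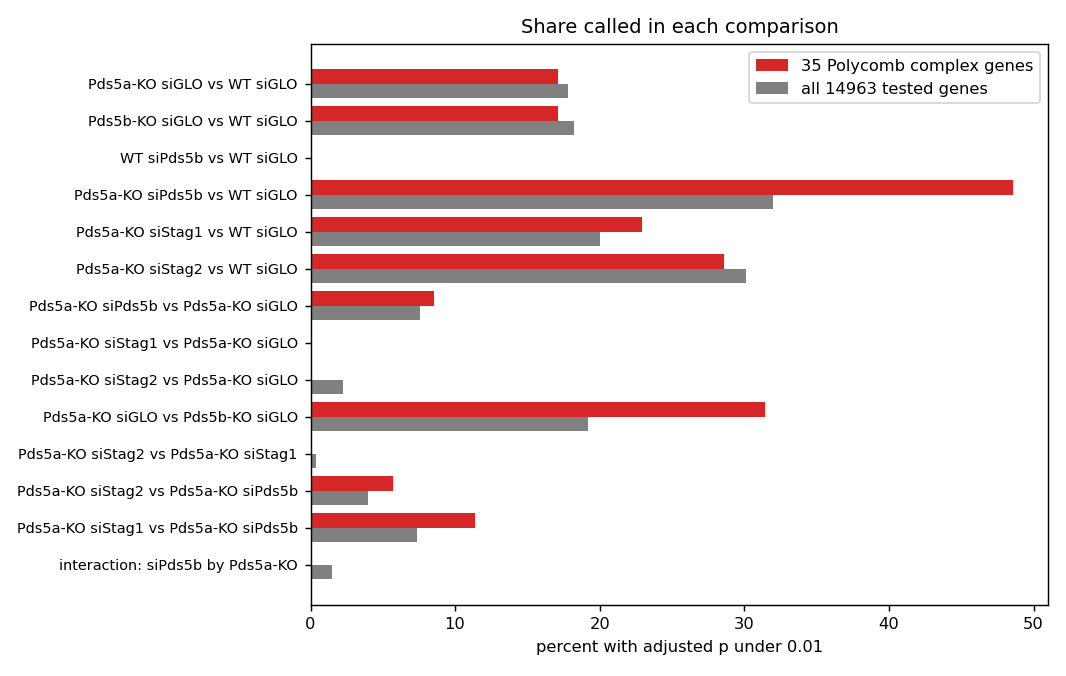
Percent of the 35 members (red) and of all 14963 tested genes (grey) with an adjusted p under 0.01 in each of the 14 comparisons, from an axis that starts at 0. The members reached 48.6% against 32.0% of all genes after dual depletion, and 17.1% against 17.8% and 18.2% in the single knockouts. At an unadjusted p under 0.05 (edgeR) the shares after dual depletion were 57.1% and 51.6%.

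Because members of a family compete for the same place in a complex, their levels per kb were also set against each other, as a share of the family's sum (mean ± SD over 3 libraries, with no test). Among the PCGF genes Pcgf6 had the highest share, 36.9% ± 2.3 in WT siGLO, with libraries of 32.9% to 37.4% in Pds5a-KO siPds5b. Pcgf2 went from 25.3% ± 1.5 to 17.8% ± 0.79 and Bmi1 from 5.15% ± 0.31 to 10.4% ± 0.52, without overlap between libraries in either case. Bmi1 was at 4.72% ± 0.74 in Pds5a-KO siGLO. Pcgf5 went from 3.06% ± 0.21 in WT siGLO to 6.68% ± 2.0 in Pds5a-KO siGLO and 7.77% ± 1.9 in Pds5a-KO siPds5b. Of the 4 CBX genes among the members, Cbx7 held 65.7% ± 2.8 in WT siGLO, 76.1% ± 1.2 in Pds5a-KO siGLO and 71.6% ± 1.1 in Pds5a-KO siPds5b, while Cbx2 held 20.7% ± 1.8, 13.6% ± 0.7 and 18.0% ± 0.8. Ezh2 made up 85.7% ± 0.45 of the EZH sum in WT siGLO, 81.6% ± 1.7 in Pds5a-KO siGLO and 86.8% ± 0.72 in Pds5b-KO siGLO. With the length of the longest transcript in place of all exons, the Bmi1 share was lower but moved the same way, from 3.57% ± 0.22 to 7.32% ± 0.37.

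**Figure D5:**
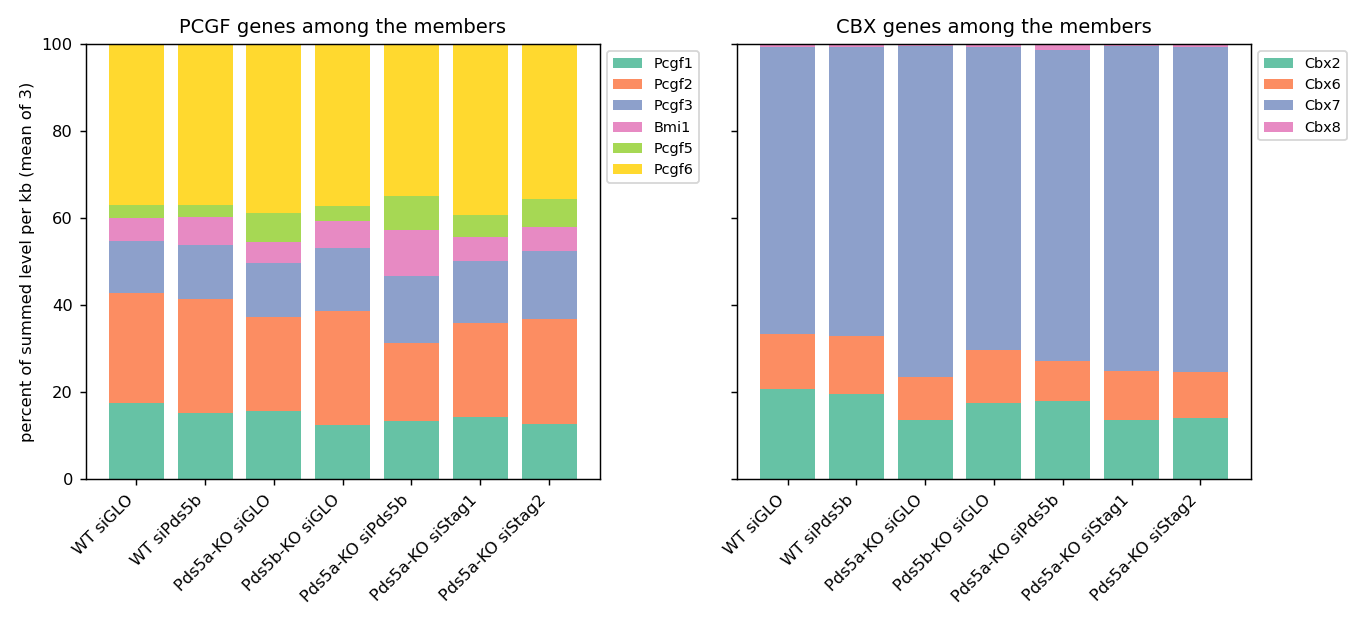
Share of the summed level per kb held by each PCGF gene (left) and each CBX gene among the members (right), in percent, stacked as means of 3 libraries for each condition. Bmi1 made up 5.15% of the PCGF sum in WT siGLO and 10.4% after dual depletion, and Cbx7 65.7% and 76.1% of the CBX sum in WT siGLO and Pds5a-KO siGLO.

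A list of 34 other genes of the Polycomb pathway, all tested, had 3 higher and 3 lower in Pds5a-KO siGLO, 3 and 2 in Pds5b-KO siGLO, none in WT siPds5b, 5 and 7 after dual depletion, 4 and 4 with siStag1 and 6 and 5 with siStag2, against WT siGLO. These are 17.6%, 14.7%, 0.00%, 35.3%, 23.5% and 32.4% of the list, beside 17.8%, 18.2%, 0.00668%, 32.0%, 20.0% and 30.1% of all genes. Sfmbt2, of a further Polycomb complex, had the largest change, from 538.5 to 578.8 normalized counts in WT siGLO to 2309 to 2736 in Pds5a-KO siGLO and 2093 to 2804 after dual depletion, and 546.8 to 593.2 in Pds5b-KO siGLO. Its log2 changes were 2.18 ± 0.11 (edgeR adjusted p = 2.46e-12) and 2.18 ± 0.11 (7.63e-13) in the Pds5a-KO conditions. AU022751, the mouse gene for EZHIP, an inhibitor of PRC2, went from 28.16 to 49.84 in WT siGLO to 162.5 to 171 after dual depletion (log2 2.14 ± 0.21, 2.38e-08), and within the Pds5a-KO clone it was higher with siPds5b by 1.40 ± 0.20 (3.66e-05). Bcorl1, a paralog of Bcor, and Tfdp1, the partner of E2F6 in the PCGF6-type PRC1, fell by 0.73 ± 0.16 (0.000609) and 0.73 ± 0.07 (4.35e-09) after dual depletion. In Pds5a-KO siGLO the next increase was Scml2 (log2 0.96 ± 0.22, 0.00162), with falls of Bcorl1 by 0.98 ± 0.16 (6.76e-05) and Tfdp1 by 0.43 ± 0.07 (2.36e-05). In Pds5b-KO siGLO, Scml2 (1.21 ± 0.21, 0.000156) and Foxk2 (0.34 ± 0.08, 0.00238) rose, while Hdac2 fell by 0.47 ± 0.07 (4.13e-05) and Wdr5 by 0.41 ± 0.07 (4.78e-05). With siStag1 and siStag2 the leading increases were again Sfmbt2 (2.00 ± 0.11, 7.86e-12, and 2.24 ± 0.11, 7.3e-13) and AU022751 (1.24 ± 0.22, 0.000127, and 1.29 ± 0.22, 5.28e-05), and Bcorl1 fell by 1.13 ± 0.16 (1.11e-05) and 1.31 ± 0.17 (1.15e-06). The next falls were Wdr5 with siStag1, by 0.35 ± 0.07 (0.000214), and Hdac2 with siStag2, by 0.54 ± 0.07 (4.11e-06). The p-values are edgeR adjusted p. The 4 enzymes that remove the Polycomb marks (Kdm6a, Kdm6b, Usp16 and Mysm1) were called in none of the 14 comparisons.

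Of 20 genes known to be kept silent by Polycomb in mESCs, 16 were tested. Against WT siGLO 3 rose in Pds5a-KO siGLO (Hand1, Cdkn2b and Cdkn2a), 3 in Pds5b-KO siGLO (Pax6, which is also among the neural markers, Lhx2 and Olig2), and 5 rose and 1 fell after dual depletion, with 3 higher after siStag1 and 4 higher and 1 lower after siStag2. None was called in WT siPds5b. The shares were 18.8%, 18.8%, 37.5%, 18.8% and 31.2% of the 16, in the order given, beside 17.8%, 18.2%, 32.0%, 20.0% and 30.1% of all genes. Their median log2 difference was 0.64 in Pds5a-KO siGLO, 0.61 in Pds5b-KO siGLO, 1.02 after dual depletion, 0.52 with siStag1 and 0.53 with siStag2, where the median of all genes was near 0. A gene silent in WT siGLO can pass the filter on low counts through a depleted condition where it is high. That favours a positive median and calls of higher genes in advance. No conclusion about the list is therefore drawn from the median, the counts of calls, their shares or the genes named. Hand1, a heart and placenta transcription factor, rose most in Pds5a-KO siGLO and after dual depletion (log2 3.50 ± 0.23, edgeR adjusted p = 2.22e-10, and 3.22 ± 0.23, 1.46e-10). Cdkn2a, a cell-cycle inhibitor gene, was higher by 0.95 ± 0.22 (edgeR adjusted p = 0.00321) in Pds5a-KO siGLO, 1.16 ± 0.22 (0.000284) after dual depletion and 1.07 ± 0.22 (0.000743) with siStag2. Olig2, a neural factor, fell by 1.22 ± 0.16 (edgeR adjusted p = 3.08e-06) there and was higher by 0.69 ± 0.15 (0.00159) in Pds5b-KO siGLO.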

How the data were processed

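The deposited values were whole-number counts per gene, 1 table per library. The authors aligned poly-A RNA-seq reads (paired-end, NovaSeq) to mm10 with STAR and tested with DESeq2; the counting tool, its annotation and its use of strand are not given in the sources used here. The authors' own tables of differential expression hold fold changes and p-values and were not used. From the counts, 1 edgeR (4.0.16, R 4.3.3) robust quasi-likelihood model was fitted over all 21 libraries and 7 conditions, with TMM normalization and the filterByExpr filter, which left 14963 of 23412 genes. P-values were adjusted by Benjamini-Hochberg over all genes tested, and a gene was called at an adjusted p under 0.01, two-sided. SE is the log2 fold change divided by the square root of F. Gene lengths, positions and exon overlaps came from GENCODE M21 (GRCm38) and promoters from RefSeq (GRCm38.p6). Scripts were run with Python 3.11.15 and matplotlib 3.10.9 and were tested on simulated data.

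Every member is accounted for by role, with values in each library for up to 8 called members per comparison, by size, and always for Ezh2, Eed, Suz12, Ring1 and Rnf2. Of other pathway genes, the 2 largest called changes each way were to be named, and one result under this rule is not reported here. The members and lists were chosen with earlier results of these data known. No replicate pair agreed within sampling noise: the mean chi-square per gene was 4.843 to 25.65 with 1 degree of freedom.

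Replicate numbers come from the labels. Over 63 same-numbered pairs of libraries in different conditions, the deviations from the condition means had a median correlation across 12029 genes of 0.176 (-0.134 to 0.688), and over 126 other pairs it was -0.0895. Every same-numbered pair was over 0.1 for siPds5b against siGLO in WT and in Pds5a-KO cells, for siStag1 and siStag2 against siGLO in Pds5a-KO cells, and for siStag1 against siPds5b. In those comparisons the numbers were taken to pair the samples. The main calls, shares and figures still come from the model without a replicate term, which ignores that pairing, and the calls that the block changed are given beside them. Alternatives tried were DESeq2 (1.42.0), RLE normalization, no filter, a replicate block, a model of the compared conditions alone, and leaving out each library.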

Additional observations from a re-analysis of the deposited data

How the results depend on the processing

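Of 737 recomputed values of the 67 calls of members, 583 kept the call, 154 lost it and 0 changed sign. The counts of members called stayed within 1.5 times the reported count under RLE normalization and without the filter on low counts. With the replicate block, Pds5b-KO siGLO against WT siGLO called 10 members, Pds5a-KO siStag1 against WT siGLO 14, siStag1 against siPds5b in Pds5a-KO cells 8, siStag2 against siStag1 there 1 (Jarid2, log2 -0.37, edgeR adjusted p = 0.00301) and the interaction 2. The block called 3316, 3518, 1538, 276 and 389 of all genes in these comparisons, in that order. For the comparisons whose numbers pair the samples, the block changed no call other than those given above. DESeq2 called 13 for Pds5a-KO siStag1 against WT siGLO, 5 for siPds5b against siGLO in Pds5a-KO cells, 7 for siStag1 against siPds5b and 3 for the interaction. Its counts of all genes were 3399, 1500, 1459 and 421, in that order. With only the conditions compared, Pds5a-KO siGLO against Pds5b-KO siGLO called 2 and siStag2 against siPds5b 1. That model also lost the calls of Cbx6 in Pds5b-KO siGLO (edgeR adjusted p = 0.0149) and Kdm2b with siPds5b against siGLO in Pds5a-KO cells (0.0115). It lost those of Aebp2 and Rbbp4 with siStag1 against siPds5b as well (0.017 and 0.0251). Without the filter the call of Pcgf5 with siStag1 against WT siGLO was lost (edgeR adjusted p = 0.0135). With 1 library left out, dual depletion against WT siGLO called 10 to 15 (10 without WT siGLO replicate 3 and 11 without Pds5a-KO siPds5b replicate 3), Pds5a-KO siStag1 against WT siGLO 2 to 7 (2 without Pds5a-KO siStag1 replicate 2, 4 without its replicate 3, and 5 and 4 without WT siGLO replicates 2 and 3), and Pds5a-KO siGLO against Pds5b-KO siGLO 4 to 8 (7 and 4 without Pds5a-KO siGLO replicates 1 and 2, and 6, 5 and 7 without Pds5b-KO siGLO replicates 1, 2 and 3). It called 1 to 2 for siStag2 against siPds5b (1 without Pds5a-KO siPds5b replicates 1 or 2 or Pds5a-KO siStag2 replicate 1), 1 to 2 for siStag1 against siPds5b without any of the 6 libraries, and 0 to 1 for the interaction (1 without WT siGLO replicate 1 or Pds5a-KO siGLO replicate 1). Across all genes, the counts that moved by more than 1.5 times under DESeq2, the block or only the conditions compared, in that order, were those of siStag1 against siGLO in Pds5a-KO cells (14; 74, 48 and 8), siStag2 against siGLO (335; 770, 677 and 99), siStag2 against siStag1 (59; 275, 276 and 93), siStag2 against siPds5b (593; 897, 891 and 264) and the interaction (222; 421, 389 and 134). With only the conditions compared, siPds5b against siGLO in Pds5a-KO cells went from 1136 to 524, siStag1 against siPds5b from 1102 to 651 and Pds5a-KO siGLO against Pds5b-KO siGLO from 2873 to 1810. WT siPds5b called 1 to 4 genes. With 1 library left out, the counts across all genes that moved by more than 1.5 times were those of Pds5a-KO siGLO (2656; 1763 to 2584) and Pds5b-KO siGLO (2725; 1704 to 2611) against WT siGLO, Pds5a-KO siGLO against Pds5b-KO siGLO (2873; 1722 to 2683), siPds5b (1136; 689 to 946), siStag1 (14; 4 to 14) and siStag2 (335; 68 to 375) against siGLO in Pds5a-KO cells, siStag2 against siStag1 (59; 6 to 18), siStag2 (593; 272 to 474) and siStag1 (1102; 596 to 944) against siPds5b, and the interaction (222; 121 to 232). The causes were not tested. Cbx8, with 11 to 75 reads a library, is the member that depth limits most.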

Other observations

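Genes of chromosome 8 had median log2 differences against WT siGLO of -0.19 in Pds5a-KO siGLO, 0.29 in Pds5b-KO siGLO, -0.23 in Pds5a-KO siPds5b and -0.20 with siStag1 or siStag2 in Pds5a-KO cells. None of the 35 Polycomb complex genes lies on chromosome 8. The positions of the other genes named above, Tfdp1 among them, are not given here, and the part of this shift in their changes was not tested.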
